A study of Mus musculus with 3 samples.

Results

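The comparison described here sets mouse CD8 T cells given the lower of the study's cholesterol doses, 0.5 µg/ml, against the same kind of cells given none. It uses 2 of the study's 3 arrays and covers all 19505 named genes on them, each as the log2 of its intensity at 0.5 µg/ml minus that of the control. The study stimulated CD8 T cells through CD3 and CD28 and cultured them under Tc1 cytokine conditions, under which CD8 T cells become cytotoxic and secrete interferon-gamma. All 3 groups (no cholesterol, 0.5 µg/ml and 0.75 µg/ml) share that stimulation and those cytokines, and total RNA from each was hybridised to 1 whole-transcript array. The labels leave out the mouse strain, age, the number of animals or cultures, the length of exposure and the carrier of the cholesterol, so cholesterol and its carrier cannot be told apart. With 1 array a group no difference below has a replicate check, and none has a p-value. Values from the 0.75 µg/ml array are given only side by side, because both doses share the control array.

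Cells keep their cholesterol within limits by sensing it in the membrane of the endoplasmic reticulum. When sterol is scarce, the escort protein SCAP carries the transcription factor SREBP2 to the Golgi, where proteases release its active part, and genes of sterol synthesis and uptake are switched on. When sterol is plentiful, INSIG proteins hold SCAP back. Oxysterols, which form from cholesterol, also activate the receptor LXR, a partner of RXR that drives genes of cholesterol export. Dividing T cells need sterol for new membrane and raise synthesis after activation.

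The median intensity of all named genes was 47.4 on the control array and 47.6 at 0.5 µg/ml. A gene was called detected when at least 1 of these arrays reached 102, the highest 95th percentile of the negative-control probe sets, and 7873 genes met this. Of them 7510 were above this background on both arrays and 363 on 1, and the other 11632 genes on neither. Among the 7510 genes the differences had a median of 0.01 and an SD of 0.17, and 95% of them lay between -0.34 and 0.32 (2.5th and 97.5th percentiles). Differences were wider among dim genes, with an SD of 0.19 in the dimmest of 5 bins of 1502 genes and 0.13 in the brightest. Positive-control probe sets, which target exons and introns of genes chosen as controls, differed with an SD of 0.22 over the 973 above background on both arrays.

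The labelled cell type was visible in its markers. All 9 measured CD8 T cell markers were above background on both arrays, with a summed intensity of 26496 in the control and 27147 at 0.5 µg/ml. Cd8a, the co-receptor chain that names the lineage, was at 4225 and 4164, and Cd3e, a signalling chain of the T cell receptor, was at 4364 and 4650.1. None of 14 markers of macrophages, dendritic cells and monocytes and none of 7 erythroid and platelet markers reached background. Of 11 B cell markers 2 did so on 1 array only (Cd79b and Fcmr), and of 13 neutrophil and mast cell markers 1 did (Kit, at 133 and 88.3). Of 7 CD4 T cell markers, however, 5 were above background on both arrays, with a list sum of 4334 in the control and 4402 at 0.5 µg/ml. Of 7 NK and gamma-delta T cell markers 3 were. Cd4 itself, named after its value was seen, was at 61.6 and 39.4, under background on both arrays. Which cells these signals came from was not tested.

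Few genes differed by much. Counting a gene when it differed at least 1.5-fold, with any value under background raised to it, 15 genes were higher at 0.5 µg/ml (0.191% of the 7873 detected) and 25 were lower (0.318%). Enzymes of sterol synthesis made up 7 of the 25. The higher genes were mostly dim, with a control intensity under 200 for 11 of the 15, against 2 of the 25 lower ones. At 2-fold, 2 genes were counted as higher (0.0254%), Klrd1 and Abcg1, and 1 as lower (0.0127%), Tgm2. The same 1.5-fold rule counted 11 higher and 10 lower positive-control probe sets, 2.08% of the 1011 detected, against 0.508% of genes, so a fold of this size was more frequent among control probe sets than among genes. Among negative-control probe sets it counted 6 as higher and 17 as lower, 7.93% of the 290 detected, and 2 were at least 2-fold lower. The 218 negative-control probe sets above background on both arrays had a median of -0.10 and an SD of 0.32. What part this shift has in the lower genes was not tested. Of genes above background on both arrays, the one just inside the lower limit was Fggy, 1.51-fold lower, and the one just outside it was Nfkbia, 1.49-fold lower. Of the named genes, Iffo2, at 101.5 on the control array, lay just under the background of 101.8, and H2-Eb1, at 103 with cholesterol, just over it.

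**Figure D1:**
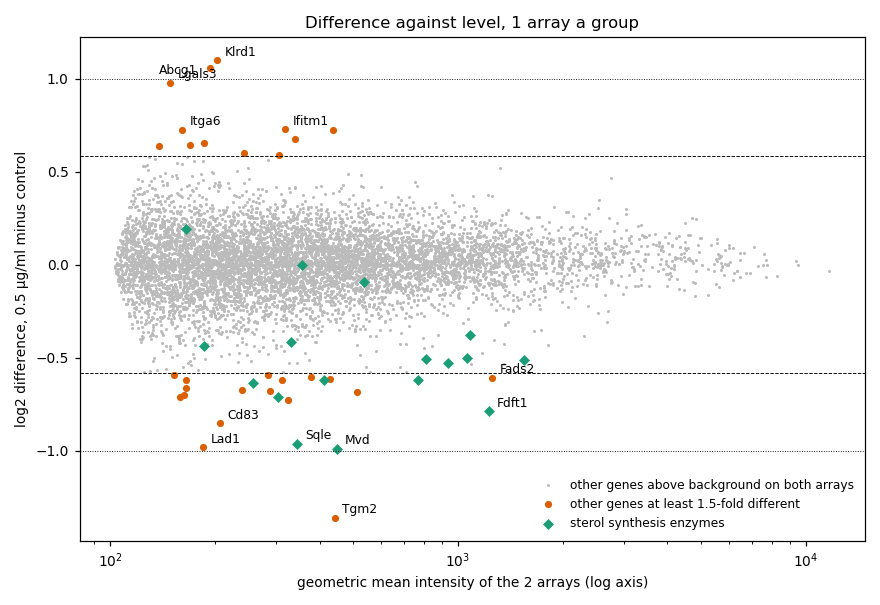
Each point is 1 of the genes above background on both arrays, with its mean intensity (log axis) on the horizontal axis and its log2 difference, 0.5 µg/ml minus control, on the vertical axis, and the dashed lines mark 1.5-fold. Most genes lie near 0, and the scatter narrows from the dim to the bright side. Most sterol enzymes lie below the lower line or nearer to it than to 0, across a wide range of levels. Mvk, Ggps1 and Ebp lie at or nearer to 0.

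Of the gene lists, those of sterol synthesis held the most counted lower genes. Of the 17 enzymes measured in the mevalonate pathway and in the steps from squalene to cholesterol, 15 were lower at 0.5 µg/ml, 1 was higher and 1 was equal. Their median log2 difference was -0.51, with single enzymes from -0.99 to 0.19, against a median of 0.01 for all genes above background on both arrays. Of the 17, 14 lay under the 2.5th percentile of all those genes, and 7 were at least 1.5-fold lower where the share of all detected genes was 0.318%. At 0.75 µg/ml the same 17 had a median of -1.68 against the control.

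Promoter sequences of these enzymes were read for 3 elements that are known to act together at sterol-regulated genes, namely the site of SREBP, the CCAAT box of the factor NF-Y and the GC box of Sp1. Of the 17 enzymes, 14 matched an entry in the promoter table from RefSeq (build GRCm38.p6), with 17 promoters between them, and no promoter was read for Fdps, Fdft1 and Sqle. Each entry ran from 250 bases before to 50 after the start of transcription, and only the 250 bases before the start were searched. The 5 promoters shown belong to the entry enzyme Hmgcs1 and to the 4 enzymes with 1 promoter entry that were at least 1.5-fold lower, and each is given as the 180 bases that end just before the start, 5′ to 3′ on the gene's own strand. Capitals mark CCAAT on either strand (ATTGG on the other) and, in Hmgcs1 alone, the SREBP site TCACNCCAC. Dhcr7, also at least 1.5-fold lower, has 3 promoter entries and is not shown, with CCAAT 2 times in 1 of them and 0 times in the others. The regions are chr13:119690171-119690350 (plus strand) for Hmgcs1, chr8:122443423-122443602 (minus) for Mvd, chr13:8885426-8885605 (plus) for Idi1, chr8:64733579-64733758 (minus) for Msmo1 and chr1:169969206-169969385 (minus) for Hsd17b7, all upstream of the first exon.
Hmgcs1: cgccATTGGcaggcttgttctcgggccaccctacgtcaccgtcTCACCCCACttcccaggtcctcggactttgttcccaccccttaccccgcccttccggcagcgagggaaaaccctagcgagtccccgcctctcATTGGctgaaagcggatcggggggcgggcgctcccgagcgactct
Mvd: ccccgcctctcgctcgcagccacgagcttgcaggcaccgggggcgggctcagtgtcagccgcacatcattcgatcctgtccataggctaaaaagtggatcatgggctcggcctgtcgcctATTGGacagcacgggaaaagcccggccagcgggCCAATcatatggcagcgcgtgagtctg
Idi1: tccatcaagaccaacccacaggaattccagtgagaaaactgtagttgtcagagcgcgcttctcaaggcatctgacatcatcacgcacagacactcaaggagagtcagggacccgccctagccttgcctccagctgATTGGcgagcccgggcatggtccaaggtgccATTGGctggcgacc
Msmo1: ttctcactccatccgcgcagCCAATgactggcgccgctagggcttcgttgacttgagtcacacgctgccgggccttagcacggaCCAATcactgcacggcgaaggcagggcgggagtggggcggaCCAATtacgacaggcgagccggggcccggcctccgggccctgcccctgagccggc
Hsd17b7: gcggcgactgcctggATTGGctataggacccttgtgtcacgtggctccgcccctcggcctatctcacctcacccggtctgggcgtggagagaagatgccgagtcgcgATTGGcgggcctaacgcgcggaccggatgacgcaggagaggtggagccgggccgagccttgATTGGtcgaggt

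Read on both strands, CCAAT occurred in 14 of the 17 enzyme promoters (82.4%), against 33.8% of all 32851 promoters in the table. It was also found at lists whose genes were slightly higher at 0.5 µg/ml, in 17 of 21 promoters of chaperones of the endoplasmic reticulum (81.0%) and in 20 of 26 promoters of mitosis genes (76.9%). The GC box GGGCGG occurred in 13 of the 17 (76.5%, against 32.7%). This box, too, was not particular to the sterol enzymes. It was found in 12 of 15 promoters of interferon signalling factors (80%) and 18 of 26 of mitosis genes (69.2%). Chaperones of the endoplasmic reticulum had it in 14 of 21 (66.7%) and fatty acid genes in 10 of 17 (58.8%). The share was lower for LXR receptors and targets (7 of 18) and for antiviral interferon genes (7 of 28). The strict SREBP site TCACNCCAC was found in 1 of the 17, that of Hmgcs1, 137 bases before the start, against 1.05% of all promoters. These matches describe only the letters of the 250 bases before each start, and binding was not measured.

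In the mevalonate pathway, which turns acetyl-CoA into isoprenoid units, 5 of 7 measured enzymes were lower, with a median of -0.44. Hmgcs1, which makes HMG-CoA and whose promoter holds the SREBP site shown above, had an intensity of 1848 in the control and 1295 at 0.5 µg/ml, a log2 difference of -0.51. Mvd, the decarboxylase that yields isopentenyl diphosphate, was at 635 and 319 (-0.99), the lowest of the 17 enzymes. Idi1, the isomerase that follows, was at 511 and 332 (-0.62). These last 2 were at least 1.5-fold lower, and Hmgcs1 was not. Pmvk, phosphomevalonate kinase, was at 216 and 159 (-0.44), and Fdps, which joins the units to farnesyl diphosphate, at 383 and 287 (-0.42). Mevalonate kinase, Mvk, stood apart from its neighbours in the pathway, higher at 177 against 155 (0.19). Its promoter held CCAAT 5 times, and at 0.75 µg/ml it was under background at 67.3. Ggps1, which feeds protein prenylation and not sterol synthesis, was equal on both arrays at 357.

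From squalene to cholesterol all 10 measured enzymes were lower, with a median of -0.58, and 9 of them lay under the 2.5th percentile of all genes. Fdft1, squalene synthase and the first enzyme committed to sterols, was at 1618 in the control and 937 with cholesterol (-0.79). Sqle, the oxygen-dependent epoxidase that limits flux through this branch, was at 482 and 247 (-0.96), and Lss, which closes the rings of lanosterol, at 1126 and 779 (-0.53). The enzymes that trim the methyl groups of lanosterol followed the same direction. Cyp51 was at 964 and 678 (-0.51), Msmo1 at 388 and 237 (-0.71), Nsdhl at 1259.6 and 890.3 (-0.50) and Hsd17b7 at 321 and 206 (-0.64). Msmo1 and Hsd17b7, whose promoters each carried 3 CCAAT boxes in the sequence shown, passed 1.5-fold. In the 250 bases searched, Mvd and Idi1 held 2 each and passed too. Hmgcs1 and Ggps1 held 3 each and Mvk 5, and none of these passed. Whether the number of boxes bears on the difference was not tested. Of the last enzymes, Dhcr7 was at 951 and 619 (-0.62) and Sc5d at 1234 and 948 (-0.38). Ebp, the sterol isomerase that acts before them, was the member nearest to 0, at 556 and 521 (-0.10), and its value at 0.75 µg/ml was 561.

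**Figure D2:**
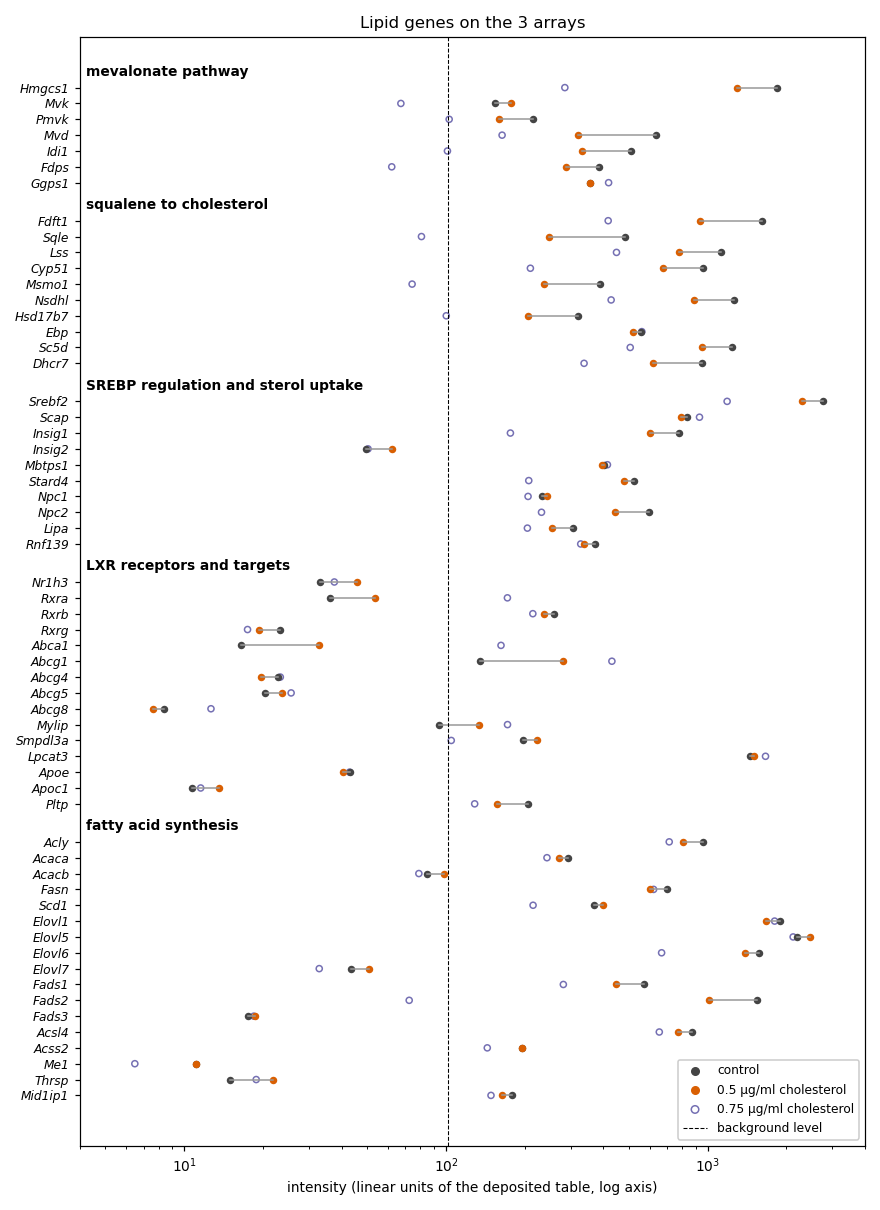
Intensities on the 3 arrays (log axis, 1 point per array) are plotted for sterol synthesis, SREBP, LXR and fatty acid genes, with a line at the background level of 102. The 0.5 µg/ml points of the sterol enzymes lie between the control and the 0.75 µg/ml points for all but Mvk, Ebp and Ggps1, and those of Abcg1, Mylip and Abca1 lie above the control.

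The sensors and regulators of the pathway had a median nearer to 0 than its enzymes. Of 10 measured genes of SREBP control and sterol uptake, 9 were above background on both arrays, of which 8 were lower, where 44.4% of all such genes were. None of the 10 was counted, where 0.508% of all detected genes were, and their median was -0.14. Srebf2, which encodes SREBP2, was at 2759 in the control and 2304 at 0.5 µg/ml (-0.26), and Scap at 836 and 789 (-0.08). Insig1, itself a target of SREBP2, was at 779 and 605 (-0.37), and Insig2 was under background at 49.4 and 62.4. Mbtps1, the protease that first cuts SREBP, was at 404 and 394 (-0.03). Insig1 lay under the 2.5th percentile of all genes, and Scap and Mbtps1 lay close to 0.

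Among genes that move sterol inside the cell, Npc2, which binds cholesterol in the lysosome, was the lowest at 596 and 442 (-0.43). Its membrane partner Npc1 was at 233 and 243 (0.06), the only one of the 9 that was higher. Lipa, the lysosomal acid lipase, was at 306 and 254 (-0.27), Stard4, a cytosolic sterol carrier, at 522 and 478 (-0.13), and Rnf139, a sterol-responsive ubiquitin ligase, at 372 and 336 (-0.15).

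On the export side the clearest difference was that of Abcg1, which passes cholesterol to lipoproteins and is a target of LXR. It was at 135 without cholesterol, 280.4 with 0.5 µg/ml and 431 with 0.75 µg/ml, and the lower dose was 2.08-fold above the control. Abca1, the other main exporter, was under background on both arrays compared, at 16.5 and 32.6, and above it at 0.75 µg/ml (162). Mylip, a ubiquitin ligase and LXR target, was at 94.0 and 134, above background with cholesterol only and at least 1.32-fold higher. Of the 15 measured genes of the LXR list only 5 were above background on both arrays, and their values went both ways. The median of the 15 was 0.18, or 0.00 with values under background raised to it. Lpcat3, which remodels phospholipids, was at 1449.9 and 1498 (0.05), Smpdl3a at 197 and 223 (0.18) and Pltp, a phospholipid transfer protein, at 206 and 157 (-0.39). Of the receptors themselves, Nr1h3, which encodes LXR-alpha, was at 32.9 and 45.6 and Rxra at 36.0 and 53.5, all under background, and Rxrb was at 259.9 and 237 (-0.13). Nr1h2, which encodes LXR-beta, is not among the 15 measured genes, so its level is not known here.

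Fatty acid genes leaned lower, with a median nearer to 0 than that of the sterol enzymes. Of 17 measured, 12 were above background on both arrays, of which 10 were lower and 2 higher, and the median over the 17 was -0.11. Among all genes above background on both arrays 44.4% were lower, and 0.508% of all detected genes were counted. Fads2, a desaturase of polyunsaturated fatty acids, was the 1 counted member, at 1548 without cholesterol, 1016 with 0.5 µg/ml and 72.4 with 0.75 µg/ml (-0.61 for the lower dose). Its neighbour in the pathway Fads1 was at 572 and 447 (-0.35). The core synthesis genes were closer to 0, with Acly at 956 and 808 (-0.24) and Fasn at 698 and 601 (-0.22). Elovl6, an elongase of saturated chains, was at 1574 and 1393 (-0.18). The higher pair was Elovl5, at 2192 and 2459.8 (0.17), and the stearoyl-CoA desaturase Scd1, at 368 and 399 (0.12). In the list of sterol esterification and lipid storage none of 11 measured genes was counted, with the droplet coat gene Plin2 at 491 and 401 (-0.29) and the cholesteryl ester hydrolase Nceh1 at 416 and 521 (0.33).

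Outside lipid metabolism the gene with the lowest difference was Tgm2, a transglutaminase that crosslinks proteins, at 709 in the control and 276 at 0.5 µg/ml, 2.57-fold lower, and 81.2 at 0.75 µg/ml. Surface and signalling molecules of T cells were among the other lower genes. Cd83, a marker of recent activation, was at 278 and 154 (-0.85). Tnfsf4, the ligand OX40L, was at 302 and 189.6 (-0.67) and back at 319.8 at 0.75 µg/ml. Plaur, the urokinase receptor, was at 208 and 131 (-0.66). Ifngr2, a chain of the interferon-gamma receptor, was at 387 and 252 (-0.62). In all 4 the lower dose lay below the control, and in all but Tnfsf4 the higher dose did too.

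Among the other lower genes were Ikzf2, which encodes the transcription factor Helios, at 418 and 253 (-0.73), and Trim21, a cytosolic antibody receptor and ubiquitin ligase, at 205 and 133 (-0.62). Ikzf2 is also 1 of the 5 CD4 T cell markers above background on both arrays, of which the other 4 were higher with cholesterol, and the list's summed intensity was 4334 in the control and 4402 at 0.5 µg/ml. Ddt, a homologue of the cytokine MIF, was at 650.0 and 404 (-0.69), Ephx1, the microsomal epoxide hydrolase, at 365 and 228 (-0.68), and Fggy, a sugar kinase at the 1.5-fold limit, at 348 and 231 (-0.59). Cox6b2, an isoform of a cytochrome c oxidase subunit, was at 530.3 and 346 (-0.61) but at 526 at 0.75 µg/ml. It was the single counted member among 80 respiration genes, where 0.508% of all detected genes were counted. Lad1 was at 260.2 and 132 (-0.98), Pgpep1 at 208 and 128 (-0.70) and Nenf at 188 and 124 (-0.60). Fggy and Nenf were named after their values were seen. Chst15, a sulfotransferase of chondroitin chains, was at 163 in the control and under background at 89.7 with cholesterol, at least 1.60-fold lower.

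Klrd1, which encodes CD94, a lectin-like receptor chain shared by NK cells and effector CD8 T cells, had the highest difference, at 138 without cholesterol, 297 with 0.5 µg/ml and 199.9 with 0.75 µg/ml, 2.14-fold above the control at the lower dose. Klrk1, which encodes the activating receptor NKG2D, was at 152 and 224 (0.56) and just missed 1.5-fold. Klrc1, the NKG2A chain that pairs with CD94, was at 50.3 and 121, at least 1.19-fold higher, and was just under background at 0.75 µg/ml. Most of the family was dim. Klrc2 and Klrc3, which encode the activating partners of CD94, were under background, at 12.6 and 12.6 and at 14.7 and 17.4, as was Klrg1 at 27.1 and 36.0. The Klrc genes are similar in sequence, so their probe sets may share signal. Clec2d, a ligand of such receptors, was at 454 and 469 (0.05) and Clec2i at 232 and 195 (-0.25).

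Of 20 measured NK lectin-like receptor genes, 4 were above background on both arrays, 1 on 1 array and 15 on neither, so the list as a whole had little signal. The summed intensity of markers of NK and gamma-delta T cells was 1123 in the control and 1146 at 0.5 µg/ml over 7 markers, of which 3 were above background on both arrays, and the NK receptor gene Ncr1, added after its value was seen, was at 12.1 and 13.3. In a bulk sample a different number of cells of a type and a different amount of RNA per cell cannot be told apart.

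Of the other higher genes, Lgals3, a galactose-binding lectin, was at 106, 209 and 273 from the control to the higher dose (0.98 at 0.5 µg/ml). Itga6, a laminin-binding integrin chain, was at 125 and 207 (0.73), and Fut7, the fucosyltransferase that builds selectin ligands, at 269.7 and 431 (0.68). Ifitm1, an interferon-inducible membrane protein, was at 247 and 409 (0.73), in the opposite direction to most interferon genes. Arsb, a lysosomal sulfatase, was at 339.7 and 562 (0.73) and near the control again at 371 at 0.75 µg/ml. Map6, a microtubule stabiliser, was at 136 and 212 (0.64), Tmem163, a zinc transporter, at 111 and 173 (0.64), and Spin1, a reader of histone methylation, at 197 and 299 (0.60). For 3 more genes the control lay under background and the fold is a lower bound, 1.53 for Ehbp1l1, 1.52 for Sypl and 1.51 for Iffo2.

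**Figure D3:**
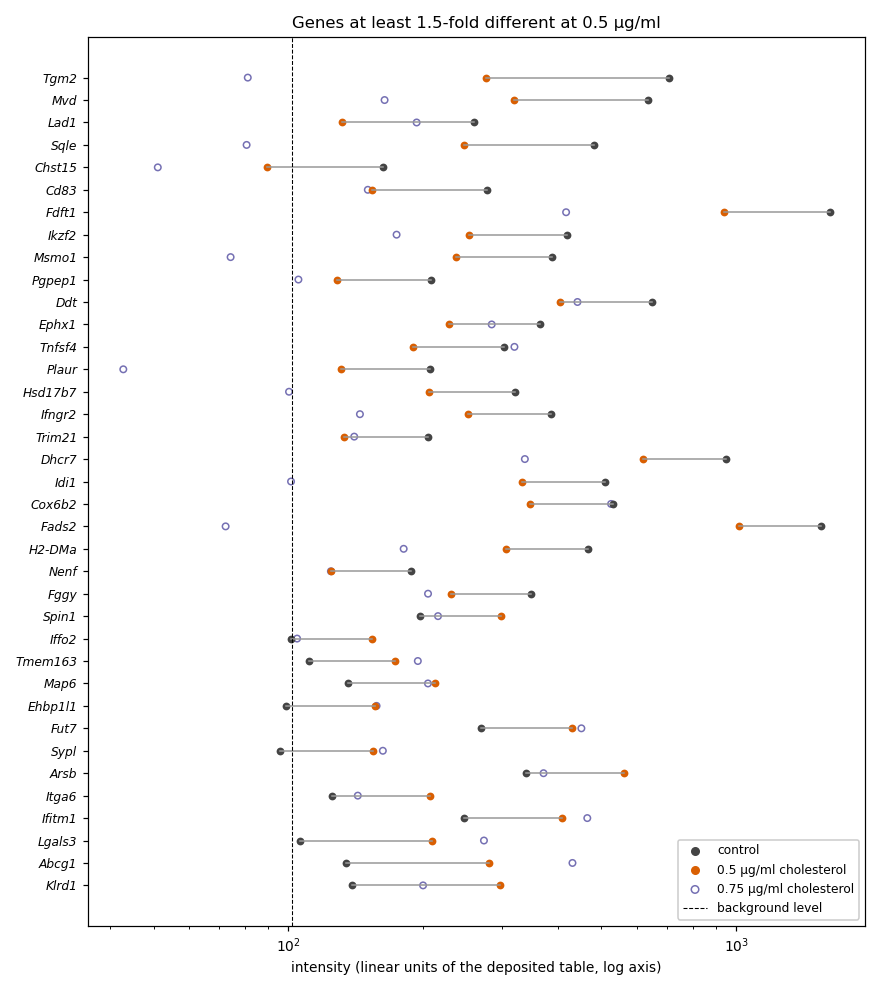
Intensities of the 37 named genes that differed at least 1.5-fold are plotted for the 3 arrays (log axis, 1 point per array), ordered by their difference at 0.5 µg/ml, with a line at the background level. The 0.75 µg/ml point lies beyond the 0.5 µg/ml point for some genes, such as Tgm2, Abcg1 and Fads2, and back near the control for others, such as Tnfsf4, Cox6b2 and Arsb.

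The genes that define Tc1 function were mostly close to the control. Gzmb, the main granzyme of these cells, was at 7611 in the control and 7741 at 0.5 µg/ml (0.02), Ifng at 333 and 346 (0.05) and Tnf at 856 and 962 (0.17). Prf1, the pore-forming partner of granzymes, was the highest of the cytotoxic list at 129 and 188 (0.54), and it was under background at 93.9 at the higher dose. Tnfsf10, the death ligand TRAIL, was at 211 and 262 (0.31). None of the 18 measured cytotoxic genes or the 25 measured cytokines and chemokines was counted, where 0.508% of all detected genes were. Only 12 and 8 of them were above background on both arrays, and 5 and 15 were on neither, where no count was possible. The medians were -0.01 for both lists over all measured members, and -0.07 and 0.05 over those above background on both arrays. The lineage factors Tbx21, which encodes T-bet, at 240.3 and 217 (-0.15), and Eomes, at 559 and 629.6 (0.17), lay on opposite sides of 0 and inside the middle 95% of genes.

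Inhibitory receptors with signal were near the control as well. Of 16 measured, 10 were above background on both arrays and 6 on neither, where no difference could be counted. The median was 0.04 over all 16 and 0.01 over the 10. None was counted, where 0.508% of all detected genes were. Pdcd1, which encodes PD-1, was at 165 and 161 (-0.04), Ctla4 at 1115 and 1166 (0.06), and Lag3 was equal on both arrays at 294. Havcr2, which encodes TIM-3, was at 18.8 and 39.5, under background on both. Of the 10 members above background on both arrays, Entpd1, the ectonucleotidase CD39, was the farthest from 0, at 158 and 191 (0.27). The 19 measured T cell receptor signalling genes had a median of 0.00 and none was counted. Among 15 costimulatory receptors, 10 of the 13 above background on both arrays were lower, where 44.4% of all such genes were. Fas was at 268 and 212 (-0.34) and Icos, a higher member, at 2646 and 3095 (0.23).

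Some genes of activation and recirculation lay outside the middle 95% of all genes, on both sides. In the immediate-early list (median -0.09), 11 of 18 genes above background on both arrays were lower, where 44.4% of all such genes were. Jun, part of AP-1, was at 370.4 and 268 (-0.47), and Nr4a3, a nuclear receptor induced by antigen signals, at 979.8 and 722 (-0.44). In the list of naive and recirculating T cells (median -0.04), Actn1 was at 392 and 272 (-0.53) and Ccr7, the receptor that guides cells into lymph nodes, at 2635 and 2021 (-0.38). Ly6c2, a surface marker of effector and memory CD8 T cells, was higher, at 2346 and 3236 (0.46). Ly6c1, named after its value was seen, was higher as well, at 2260 and 2880 (0.35). Whether the probe sets of these related genes share signal was not tested. Gpr183, a receptor for oxysterols that positions lymphocytes, was at 202 and 158 (-0.36). Cxcr3, which leads effector cells into inflamed tissue, was at 318 and 362 (0.19), inside the middle 95%. Selp, P-selectin, was at 999 and 768 (-0.38) and far lower, at 164, at 0.75 µg/ml. The transcription factor Foxo1, which maintains recirculation genes, was at 572 and 447 (-0.36).

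The NF-kappaB list leaned lower, with 12 of the 13 genes above background on both arrays below the control and a median of -0.12 over 14 measured, where 44.4% of all genes above background on both arrays were lower. None was counted. Nfkbia, the inhibitor that NF-kappaB itself induces, was at 681 and 456 (-0.58), Nfkbiz at 233 and 180.3 (-0.37) and Tnfaip3, which encodes the feedback inhibitor A20, at 719.9 and 565 (-0.35). These 3 feedback genes were the low end of the list among genes above background on both arrays, and at 0.75 µg/ml they were at 378, 124 and 314.

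Interferon and antigen-presentation genes leaned the same way by small amounts. Across 5 such lists 68 genes were above background on both arrays, of which 57 were lower and 11 higher. Among all genes above background on both arrays 44.4% were lower. The median over all 80 measured was -0.15, and 1 was counted, where 0.508% of all detected genes were. Among the signalling factors, Stat2, which relays type I interferon signals, was at 867 in the control and 581 at 0.5 µg/ml (-0.58), Irf1, a primary target of interferon-gamma, at 1388 and 997 (-0.48), and Irf7, which amplifies type I interferon, at 507 and 416 (-0.28). In the antiviral list 21 of 26 were lower. Dhx58, an RNA sensor, was at 291 and 226 (-0.36), while Samd9l was higher at 259.8 and 347 (0.42) and under the control at 153 at 0.75 µg/ml. The core of the interferon-stimulated response element, searched as GAAA, any 2 bases and GAAA on both strands, occurred in 9 of 28 promoters of antiviral genes (32.1%) against 2.98% of all promoters.

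Of the interferon-gamma-inducible GTPases 9 of 11 were lower (median -0.20), where 44.4% of all genes above background on both arrays were. Gbp2 was at 1869.8 and 1462 (-0.35) and Iigp1 at 361 and 287 (-0.33). Members of the Gbp family are close copies, so their probe sets may share signal. In the MHC class I list 11 of 13 were lower (median -0.12), and H2-T23, a non-classical molecule that presents to receptors containing CD94, was at 1954 and 1531 (-0.35). Class II genes had the lowest median of these lists, -0.33 over 9 measured, and 5 of the 6 above background on both arrays were lower. H2-DMa, which loads peptides onto class II molecules, was the counted gene, at 466 and 306 (-0.61), its partners H2-DMb1 and H2-DMb2 differed by -0.38 and -0.43, and H2-Eb1 was at 153 and 103 (-0.58). The higher one was H2-Ab1, a classical class II chain named after its value was seen, at 266 and 285 (0.10). Beside these, the summed intensity of the 11 B cell markers was 405 on both arrays, and that of the 14 markers of macrophages, dendritic cells and monocytes was 232 in the control and 249 at 0.5 µg/ml.

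**Figure D4:**
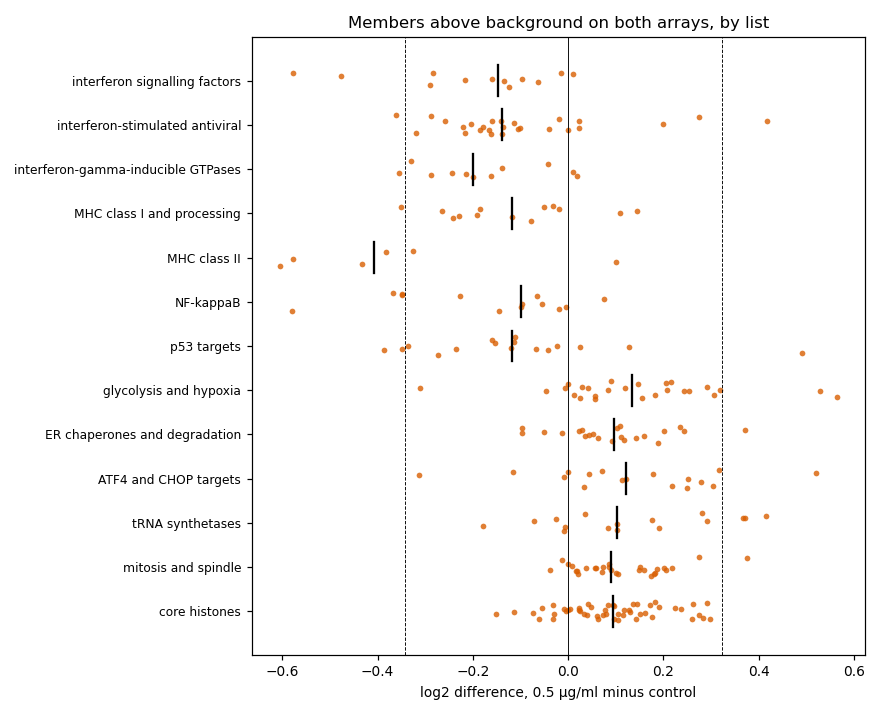
Each point is a gene above background on both arrays, placed by its log2 difference (0.5 µg/ml minus control) within 13 gene lists, with black bars at the median of the points and dashed lines at the 2.5th and 97.5th percentiles of all such genes. Interferon, MHC, NF-kappaB and p53 genes lie mostly left of 0 and genes of glycolysis, protein folding, amino acid supply, mitosis and histones mostly right of it, and most points stay between the dashed lines.

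Glycolysis and hypoxia genes leaned higher. Of the 26 above background on both arrays 23 were higher, where 53.4% of all such genes were. The median over 30 measured was 0.11, with none counted, where 0.508% of all detected genes were. Pfkfb3, which makes the activator of phosphofructokinase, was at 234 in the control and 347 at 0.5 µg/ml (0.56), Ankrd37, a hypoxia-inducible gene, at 105 and 151 (0.53), and Bnip3, which marks mitochondria for removal, at 926 and 1155 (0.32). The lactate exporter Slc16a3 was at 1261 and 1543 (0.29). Aldoc, an aldolase isoform, was the lowest member, at 688 and 555 (-0.31). At 0.75 µg/ml the list's median lay on the other side of the control, at -0.29, with Pfkfb3 at 198, Bnip3 at 581 and Slc16a3 at 554.

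Lists tied to amino acid supply and protein folding also leaned higher, none with a counted member, where 0.508% of all detected genes were counted. Among all genes above background on both arrays 53.4% were higher. Targets of ATF4 and CHOP, factors of the integrated stress response, had a median of 0.10, and 13 of 17 above background on both arrays were higher. Asns, asparagine synthetase, was at 1106 and 1585 (0.52) and Slc7a5, the leucine transporter, at 2273 and 2806 (0.30), while Atf3 was lower at 334 and 269 (-0.31). Of 16 tRNA synthetases 11 were higher (median 0.10), with Cars at 294 and 392 (0.41), Tars at 590.4 and 761 (0.37) and Yars at 971 and 1255 (0.37). Among chaperones of the endoplasmic reticulum 18 of 22 were higher (median 0.10), with the disulfide isomerase Pdia6 at 1103 and 1425 (0.37) and the chaperone Hyou1 at 863 and 1016 (0.24).

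Genes of cell division lay slightly above the control. For the counts that follow, 53.4% of all genes above background on both arrays were higher and 44.4% lower. Of 29 genes of mitosis and the spindle 27 were higher, with a median of 0.09 and single genes from -0.04 to 0.38, so nearly all were shifted a little and none by 1.5-fold. Ccna2, cyclin A2, was at 1069 and 1387 (0.38), Bub1b, a checkpoint kinase, at 434 and 525 (0.27), and the proliferation marker Mki67 at 2033 and 2156 (0.08). Of 34 DNA replication genes 25 were higher (median 0.06), and of 51 core histone genes above background on both arrays 40 were (median 0.09 over 57), although histone copies are near-identical and may share signal. The brightest of the 5 bins of all genes had a median of 0.03. p53 targets leaned lower, with 13 of 16 below the control and a median of -0.14. Sesn1, a p53-induced regulator of mTORC1, was at 248 and 189 (-0.39), but Bbc3, the pro-death gene PUMA, was higher at 121 and 170.1 (0.49).

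Large housekeeping lists sat at the control level, with medians of -0.01 for 63 cytosolic ribosomal proteins, 0.02 for 76 mitochondrial ribosomal proteins, 0.02 for 80 respiration genes and 0.02 for 38 proteasome subunits. Of the 43 pathway lists, 11 had a median under -0.1, 5 over 0.1 and 27 between. No gene was counted in 31 of them, where 0.508% of all detected genes were counted. The 2 lists of sterol synthesis had the lowest medians.

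**Figure D5:**
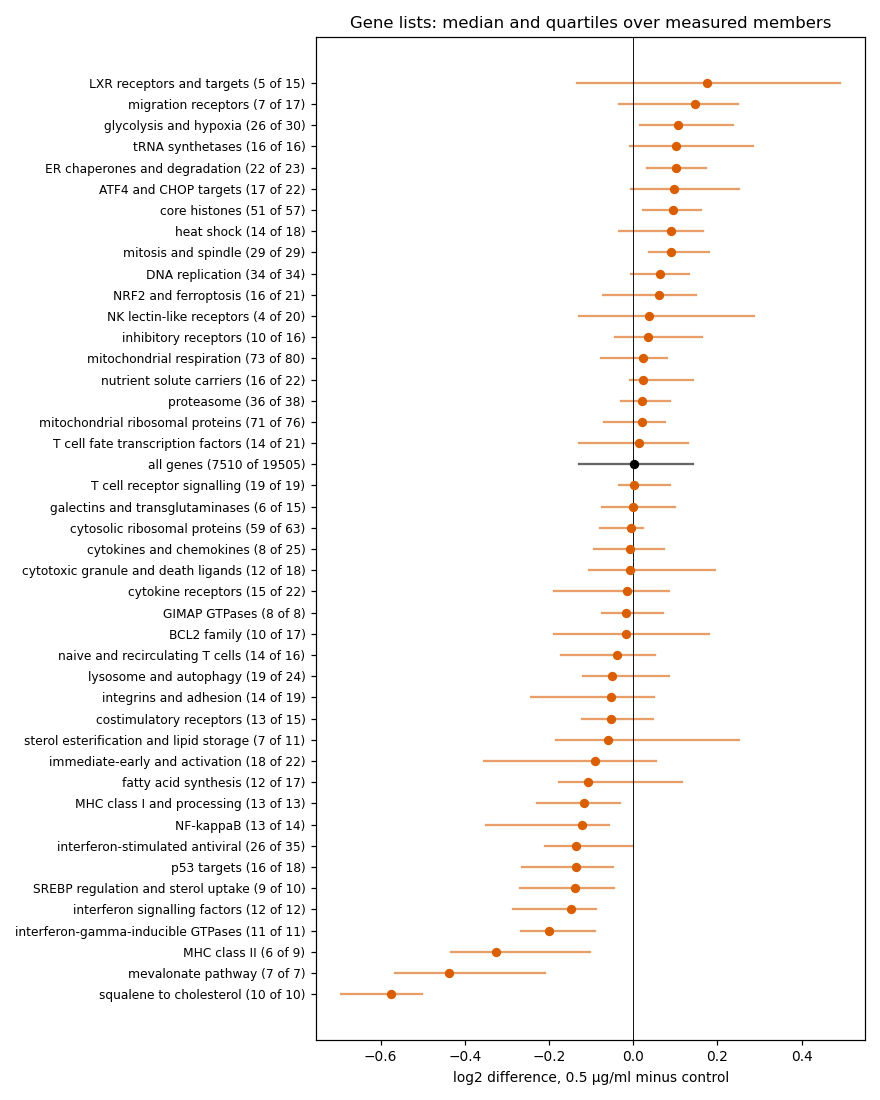
Medians (points) and quartiles (lines) of the log2 difference, 0.5 µg/ml minus control, are given for the 43 pathway lists over all their measured members, with all genes for reference. Only the squalene to cholesterol and mevalonate lists lie clearly apart, at -0.58 and -0.44, followed by MHC class II at -0.33, and the other medians lie between -0.20 and 0.18.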

How the data were processed

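Total RNA from 3 samples of CD8 T cells was isolated with Trizol and hybridised after biotin labelling of sense-strand targets, per the labels' protocols. The deposited series table holds linear intensities, 1 for each probe set on each array. How the authors corrected and normalized these intensities is not given in the sources used here. No further normalization was applied. The table holds 28846 probe sets, of which 22206 target transcripts. Of these, 19572 have 1 gene symbol in the platform annotation, 0 have several and 2634 are unnamed here, and all 19572 matched the RefSeq gene table of GRCm38.p6. Where a gene had several probe sets (55 genes) the brightest was used, which leaves 19505 genes. The 5222 negative, 1324 positive and 94 other control probe sets stayed out of gene counts.

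Log2 was taken of the intensity, and the control was subtracted from the 0.5 µg/ml array. A gene with 1 value under the background level enters counts by the lower bound of its fold, with that value raised to the level. With 1 array a group there is no test, and precision is limited by having 2 arrays in each difference. List medians are over all measured members, matched by symbol or synonym. Genes were named by rule: the 20 highest and 20 lowest above background on both arrays, the 8 largest bounds in each direction, all members of the sterol, LXR, fatty acid and NK receptor lists, up to 4 members of every other list, and a fixed set such as Cd8a and Pdcd1. Predicted and clone-named genes were counted and not named, 3 of the 40 counted. Exceptions are marked in the text. The members and lists were chosen with earlier results of these data known. Alternatives covered the background level, filters, offsets, scaling and probe set averaging. Calculations ran in Python 3.11.15 with pandas 2.3.3, numpy 2.4.6, statsmodels 0.14.6 and scipy 1.17.1, and plots in matplotlib 3.10.9. The counting steps were run on simulated data with large changes planted in bright genes only. That run does not test calls near 1.5-fold or near background.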

Additional observations from a re-analysis of the deposited data

How the results depend on the processing

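The counts of 15 higher and 25 lower genes at 1.5-fold, and of 2 and 1 at 2-fold, depended on how dim genes were treated. With the 99th percentile of the negative controls (670) as background, 0 were higher and 2 lower at 1.5-fold, and 0 and 0 at 2-fold. With a filter on the mean level in place of the background rule they were 57 and 77, and 6 and 3 at 2-fold. With no filter they were 377 and 400, and 25 and 29 at 2-fold. Adding 16 to every intensity left 9 higher and 21 lower at 1.5-fold and 1 higher at 2-fold, and adding 32 left 7 higher and 14 lower at 1.5-fold and 0 higher at 2-fold. Level-dependent centring gave 14 higher and 30 lower at 1.5-fold and 2 lower at 2-fold. Quantile scaling gave 15 higher and 27 lower, and median centring and averaging probe sets gave 15 and 25 each. The median of the mevalonate list stayed between -0.44 and -0.38, and that of the squalene to cholesterol list between -0.60 and -0.54. List medians use all measured members whatever their level, so the other background level and the filters could not move them. These ranges come from the offsets, quantile scaling and centring. The LXR median ran from 0.09 to 0.18, or 0.00 with values under background raised to it, an alternative chosen after seeing the data. No paired analysis was possible because each group had 1 array.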
